A study of Homo sapiens with 12 samples.

Results

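The actins and contractile cytoskeleton genes described here were 10 genes: the actins ACTA2, ACTB and ACTG1, the myosin light chain MYL9, the tropomyosins TPM1, TPM2 and TPM4, the alpha-actinin ACTN1 and the transgelins TAGLN and TAGLN2. They were picked by symbol, with their levels in these libraries already known, out of 60612 named rows of the count table. Of the 10, 8 had enough reads to be fitted, and TAGLN and TPM2 did not. Because the levels chose the genes, every level and fold change of the 10 is given as a description, with its error and without a test. Tests are given only for genes outside the 10.

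The libraries came from CAMA-1, an established estrogen receptor-positive luminal breast cancer line labelled wild-type, grown in serum-containing medium. Cells received the vehicle DMSO, abemaciclib at 100 nM, fulvestrant at 5 nM, or both drugs together (at doses that its label leaves unstated), for 5 days by the study's description. Abemaciclib inhibits the cyclin-dependent kinases CDK4 and CDK6, which phosphorylate the retinoblastoma protein, and fulvestrant binds the estrogen receptor and promotes its degradation. Each of the 4 groups held 3 libraries of 3′ mRNA tags, so each read marks the end of 1 transcript and depth-scaled counts (CPM) can be set side by side between genes without a length correction. All groups are 1 cell line, and bulk CPM cannot tell fewer expressing cells from less RNA per cell.

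Actin monomers polymerise into filaments that give a cell its shape and its tension. Tropomyosins wind along the filament, alpha-actinin bundles filaments and ties them to adhesions, and myosin II pulls on them when its light chain is phosphorylated. Every cell makes the cytoplasmic actins ACTB and ACTG1, whereas ACTA2 and TAGLN are known chiefly from smooth muscle and contractile fibroblasts. Several of these genes are textbook targets of the serum response factor SRF, which binds a 10-base element, the CArG box, with its partners MRTFA and MRTFB when monomeric actin runs low.

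The upstream sequences are shown for the genes on whose levels the account turns and for those that carry this element. RefSeq start sites (GRCh38.p14) gave 16 windows, from 250 bases before to 50 bases after a start, for 7 of the 10 genes. ACTB, TAGLN and MYL9 were not in the window table used here. A perfect CArG box was searched by its letters, with a pattern that finds boxes on either strand. It stood in 3 of the 16 windows (18.8%), against 454 of all 35116 windows (1.29%). The 3 were in ACTG1, TPM4 and ACTN1, with first bases 94, 173 and 171 bases upstream of the start of that window. TPM4 and ACTN1 also had windows at other starts, and none of those held a box. All 3 starts with a box lay inside the annotated gene. Reads from the 3′ end do not show which start was used. The lines below give, 5′ to 3′ on the gene's strand, the longest stretch of each window that overlaps no annotated exon of the gene. The box is in capitals. For ACTA2 the stretch is that of the start farther inside the annotated gene. Neither of the ACTA2 windows held a perfect match, which says only that these letters were not in those windows. The printed ACTA2 stretch holds ccctatatgg and ccttgtttgg, each 1 base off the pattern. Such near matches were not searched for in the other windows.
ACTG1 (chr17:81512852-81513049, minus strand): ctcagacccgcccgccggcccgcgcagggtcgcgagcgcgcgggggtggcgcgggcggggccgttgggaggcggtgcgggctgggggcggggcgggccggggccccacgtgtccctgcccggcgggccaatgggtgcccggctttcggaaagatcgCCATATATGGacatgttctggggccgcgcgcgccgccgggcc
TPM4 (chr19:16067307-16067533, plus strand): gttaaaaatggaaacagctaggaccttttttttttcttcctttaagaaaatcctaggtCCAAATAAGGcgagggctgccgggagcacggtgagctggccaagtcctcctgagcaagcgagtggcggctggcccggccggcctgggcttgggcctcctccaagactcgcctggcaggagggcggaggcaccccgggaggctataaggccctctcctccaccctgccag
ACTN1 (chr14:68977655-68977816, minus strand): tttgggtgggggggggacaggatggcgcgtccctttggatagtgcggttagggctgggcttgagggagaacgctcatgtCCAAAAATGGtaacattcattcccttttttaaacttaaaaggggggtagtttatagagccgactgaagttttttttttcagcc
ACTA2 (chr10:88952774-88953023, minus strand): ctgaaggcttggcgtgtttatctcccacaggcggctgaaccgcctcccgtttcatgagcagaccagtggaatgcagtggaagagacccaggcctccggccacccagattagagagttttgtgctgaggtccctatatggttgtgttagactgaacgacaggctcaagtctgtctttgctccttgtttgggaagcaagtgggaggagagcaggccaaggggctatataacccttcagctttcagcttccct

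Across the 12 libraries total counts ran from 3299119 to 5164667, and each library was nearest in profile to its own group. Fulvestrant replicate 3 stood apart from its mates, with a chi-square per degree of freedom of 9.719 and 15.3 against them, where the other replicate pairs lay between 1.874 and 5.59. Values of the set that it moved by over 0.1 on the log2 scale are given with and without it. Mitochondrial transcripts took 11.97% to 12.55% of reads under DMSO and 15.6% to 20.59% in the treated groups, and with them left out each fold change of the set moved by at most 0.01 on the log2 scale. All 12 luminal epithelial markers examined were present, with a summed level of 6650 to 6970 CPM under DMSO, 8140 to 8240 under abemaciclib, 8150 to 8790 under fulvestrant and 7760 to 8470 under the combination.

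Markers of contractile and stromal cells bear directly on these genes. Of 18 smooth muscle genes, 7 had no read in any library, among them the defining CNN1, DES and MYOCD, and MYH11 never exceeded 3 counts. The summed level of the 18 was 176 to 193 CPM under DMSO, 359 to 392 under abemaciclib, 247 to 333 under fulvestrant and 247 to 280 under the combination. CNN2, CNN3 and SMTN made up most of this sum. Their means were 80.55, 59.62 and 22.92 CPM under DMSO and 115.1, 121.1 and 42.35 CPM under abemaciclib. In the same groups MYLK averaged 9.485 and 65.86 CPM and ACTG2 3.738 and 16.41 CPM. Of 22 fibroblast and myoepithelial markers, 8 had no read in any library, including the fibroblast genes COL1A2, DCN, LUM, PDGFRA and PDGFRB. KRT5 and TP63 never exceeded 3 counts. Their sum was 159 to 176 CPM under DMSO, 294 to 313 under abemaciclib, 296 to 324 under fulvestrant and 293 to 311 under the combination. Of the 6 that could be tested, 4, 5 and 4 rose and none fell under abemaciclib, fulvestrant and the combination. Of all genes 20.5%, 25.3% and 27.7% rose and 20.7%, 25.7% and 27.5% fell. The part of these markers in the levels of the set was not tested. Named after their values were seen, COL5A1, a fibrillar collagen gene, averaged 86.6 ± 5.32 CPM under DMSO and 184 ± 9.85, 172 ± 4.33 and 186 ± 4.63 CPM in the treated groups (SD, n = 3), and NOTCH3 45.9 ± 6.30, 67.2 ± 4.73, 80.1 ± 5.36 and 66.2 ± 3.56 CPM. Their log2 changes against DMSO were 1.09, 0.99 and 1.1 for COL5A1 and 0.56, 0.81 and 0.53 for NOTCH3. As their values chose these genes, no p-value is given for them. OXTR rose in all 3 comparisons and COL3A1 under fulvestrant and the combination.

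The 10 genes spanned a wide range of levels. By mean CPM over the 12 libraries ACTG1 ranked 33rd among all named genes, TAGLN2 65th, TPM4 109th, ACTB 119th, ACTN1 489th, MYL9 1216th, TPM1 1839th and ACTA2 7849th. Together the 10 took 0.42% to 0.493% of reads under DMSO, 0.549% to 0.587% under abemaciclib, 0.52% to 0.598% under fulvestrant and 0.519% to 0.527% under the combination. The treated groups therefore lay above DMSO in each library.

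**Figure D1:**
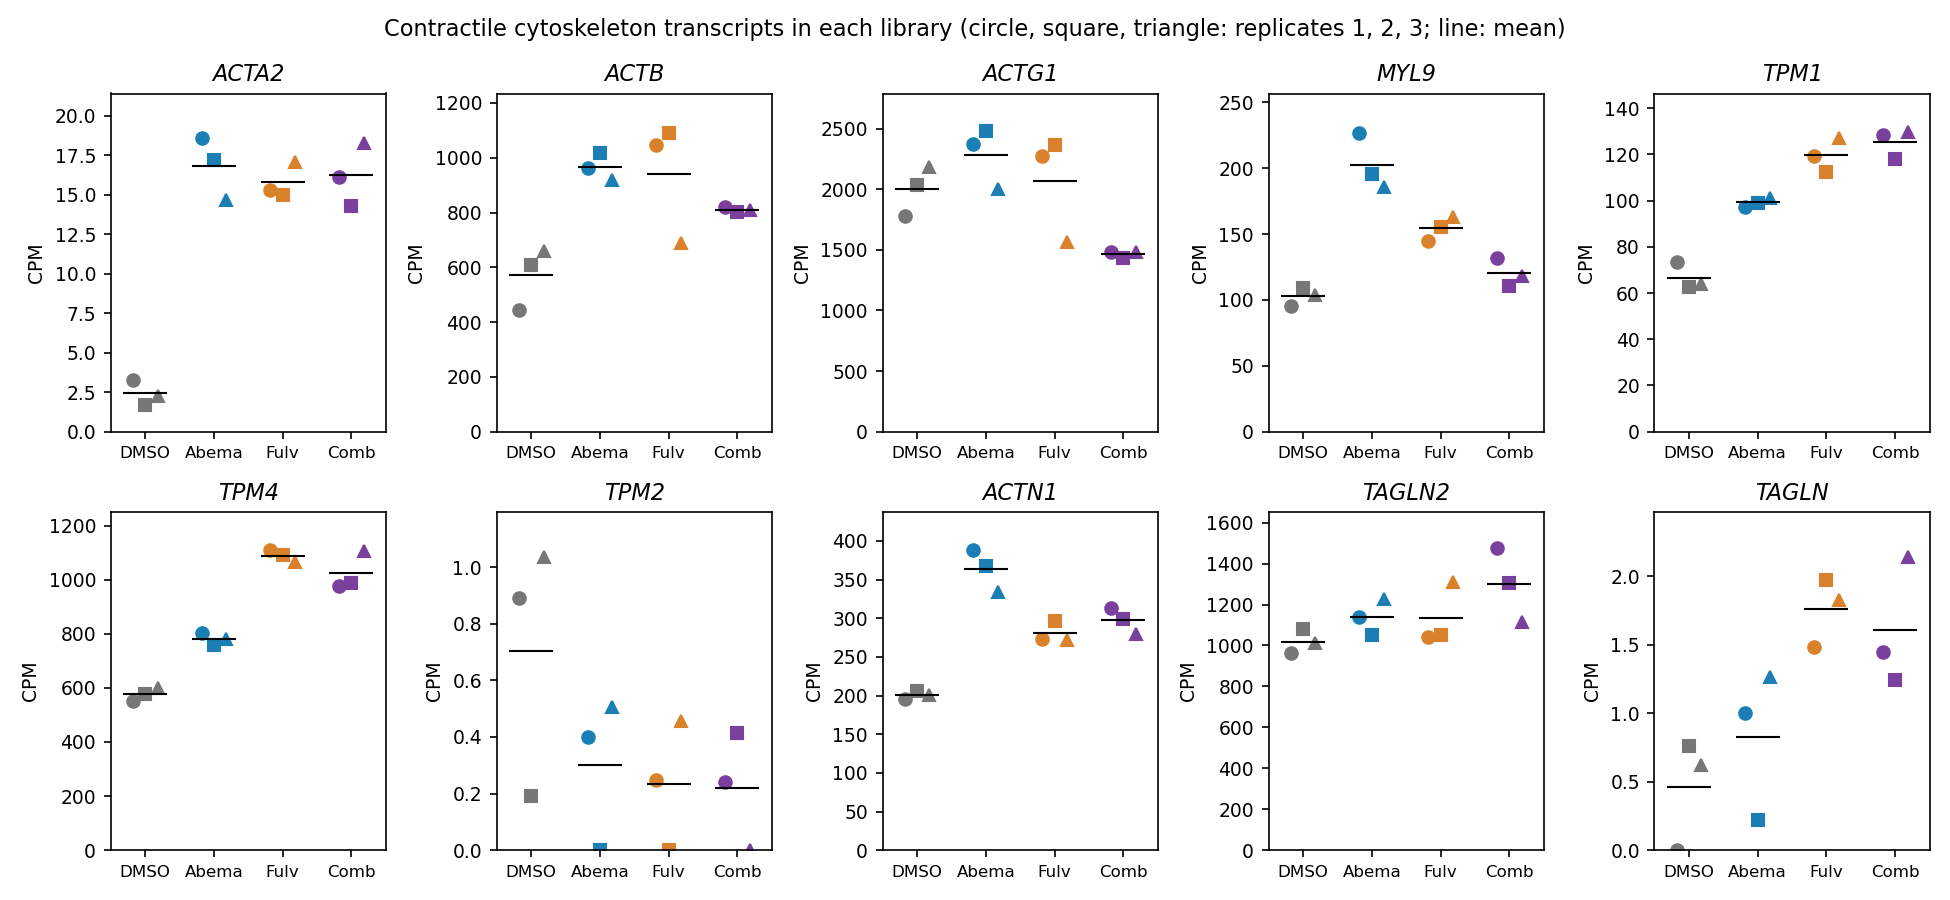
Level of each of the 10 genes in every library, with CPM on a separate linear axis for each gene and the 4 treatment groups side by side; points are libraries and lines are group means (n = 3). ACTA2 sat at 1.71 to 3.27 CPM under DMSO and at 14.3 to 18.6 CPM in all 9 treated libraries.

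ACTA2, which encodes the smooth muscle alpha-actin, showed the largest separation from DMSO. Its level under DMSO was 3.27, 1.71 and 2.27 CPM, from 11, 9 and 11 reads. Abemaciclib libraries had 18.6, 17.2 and 14.7 CPM, fulvestrant libraries 15.3, 14.9 and 17.1 CPM, and combination libraries 16.1, 14.3 and 18.2 CPM. Every treated library lay above every DMSO library, and the 3 treated groups overlapped one another. The log2 fold change against DMSO was 2.85 ± 0.24 (SE) under abemaciclib (7.23-fold), 2.76 ± 0.25 under fulvestrant (6.77-fold) and 2.80 ± 0.24 under the combination (6.95-fold). The combination differed from abemaciclib by -0.06 ± 0.17 and from fulvestrant by 0.04 ± 0.18. These comparisons share the DMSO libraries, whose few reads set the precision of all 3, and the gene passed the count filter largely on the treated libraries. Reads of ACTA2 could meet the genes STAMBPL1 and ACTA2-AS1 on the opposite strand at its 3′ end, which had 8 and 0 reads in all. Even after treatment ACTA2 was a minor actin, at 0.555%, 0.489% and 0.499% of the reads of the 3 actins under abemaciclib against 0.147%, 0.0646% and 0.0798% under DMSO.

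ACTB, the beta-cytoplasmic actin often used as a loading control, had 445, 609 and 660 CPM under DMSO. Under abemaciclib it had 964, 1019 and 919 CPM, under fulvestrant 1047, 1090 and 687 CPM, and under the combination 821, 803 and 808 CPM. All 9 treated libraries exceeded all 3 DMSO libraries, with fulvestrant replicate 3 the closest. Log2 fold changes against DMSO were 0.76 ± 0.18, 0.72 ± 0.18 and 0.50 ± 0.18 for abemaciclib, fulvestrant and the combination, and the fulvestrant value was 0.90 without replicate 3. The combination lay below abemaciclib in every library (-0.26 ± 0.18) and overlapped fulvestrant (-0.22 ± 0.18).

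ACTG1, the gamma-cytoplasmic actin and the most abundant of the set, was lowest in the combination. Its levels were 1780, 2039 and 2187 CPM under DMSO, 2372, 2484 and 2003 CPM under abemaciclib and 2271, 2362 and 1568 CPM under fulvestrant. Both single-agent groups overlapped DMSO, with log2 differences of 0.19 ± 0.14 and 0.05 ± 0.14. The fulvestrant difference was 0.21 without replicate 3 of that group and -0.06 without replicate 2, so it has no settled sign. In the combination, levels of 1482, 1434 and 1481 CPM lay below all 3 other groups. The log2 difference was -0.45 ± 0.14 from DMSO, -0.64 ± 0.14 from abemaciclib and -0.50 ± 0.14 from fulvestrant. Actin pseudogenes and POTE actin genes, which could share reads with ACTB and ACTG1, held 51 counts against 147057 for the pair.

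The balance of the cytoplasmic actins was compared within each library, where the scaling between libraries drops out. The ratio of ACTB to ACTG1 reads was 0.25, 0.298 and 0.302 under DMSO. It was 0.406, 0.41 and 0.459 under abemaciclib and 0.461, 0.461 and 0.438 under fulvestrant. The combination gave the highest ratios, at 0.554, 0.56 and 0.545. DMSO lay below all treated groups and the combination above all others, while the single agents overlapped. Fulvestrant replicate 3, low for both actins, kept the ratio of its mates. Such a ratio shows unequal change and not which of the pair moved.

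**Figure D2:**
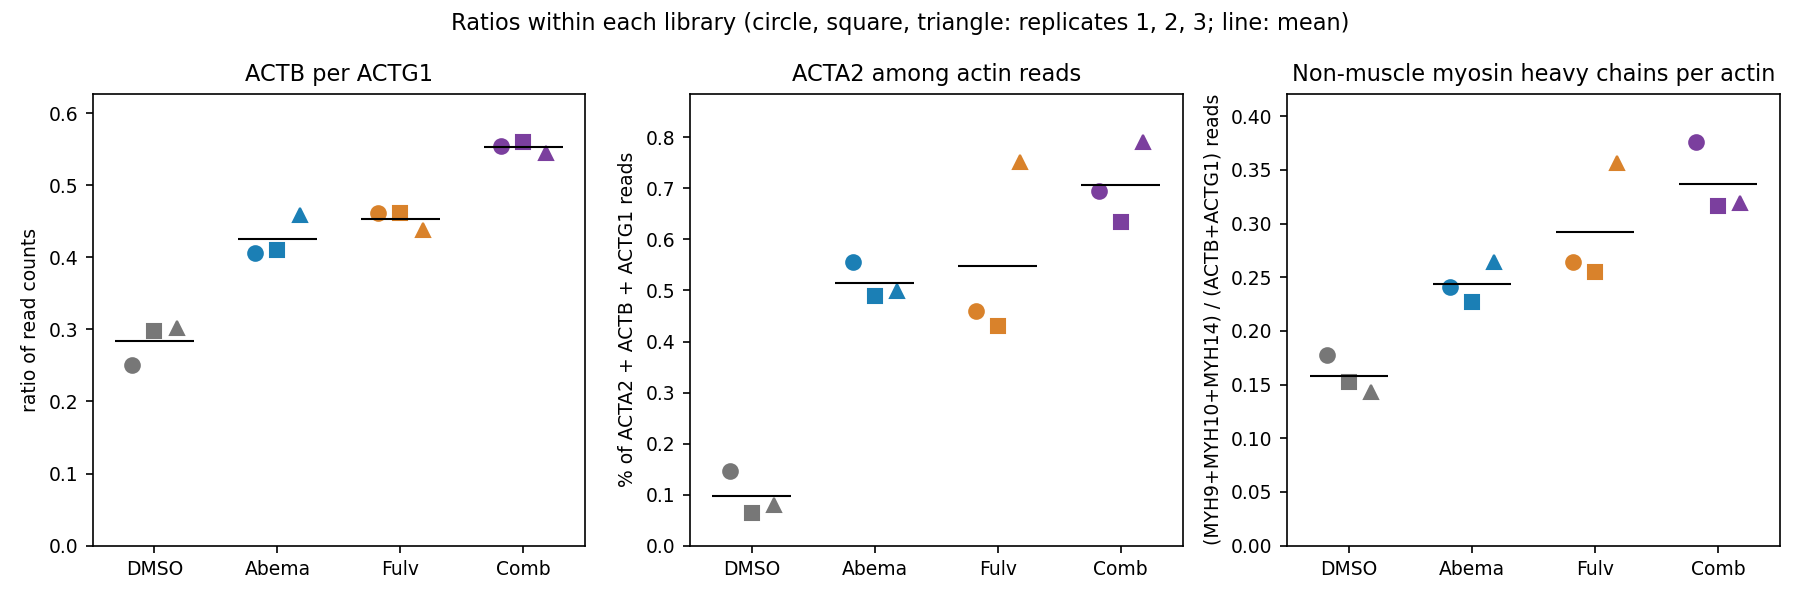
Ratios of read counts within each library by treatment group: ACTB per ACTG1 (left), ACTA2 as a percentage of the reads of the 3 actins (middle) and non-muscle myosin heavy chains per cytoplasmic actin (right). Symbols are replicates and lines group means (n = 3); ACTB per ACTG1 ran from 0.25 in a DMSO library to 0.56 in a combination library.

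MYL9, a regulatory light chain of myosin II, had 95.3, 109 and 104 CPM under DMSO. Under abemaciclib it had 227, 195 and 186 CPM, under fulvestrant 145, 155 and 163 CPM, and under the combination 132, 111 and 118 CPM. The groups formed an order without overlap, from DMSO through the combination and fulvestrant to abemaciclib. Log2 fold changes against DMSO were 0.98 ± 0.09 under abemaciclib, 0.59 ± 0.09 under fulvestrant and 0.22 ± 0.09 under the combination. The combination was lower than abemaciclib by -0.76 ± 0.09 and than fulvestrant by -0.36 ± 0.09 on the same scale. MYL9 was thus higher with abemaciclib alone and lower when abemaciclib was added to fulvestrant. DMSO and the combination differed least, with 109 CPM in the highest DMSO library and 111 CPM in the lowest combination library. The antisense gene DLGAP4-AS1 at its 3′ end had 0 reads.

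ACTN1, the alpha-actinin of stress fibres and focal adhesions, had 195, 206 and 201 CPM under DMSO. Its levels were 388, 368 and 335 CPM under abemaciclib, 273, 297 and 272 CPM under fulvestrant and 313, 299 and 280 CPM under the combination. DMSO was lowest and abemaciclib highest without overlap, and the other two overlapped. Against DMSO the log2 fold changes were 0.86 ± 0.08, 0.48 ± 0.08 and 0.57 ± 0.08. The combination differed from abemaciclib by -0.29 ± 0.08 and from fulvestrant by 0.08 ± 0.08.

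The tropomyosins TPM1 and TPM4 had a different order, with fulvestrant above abemaciclib. TPM1 had 73.3, 62.7 and 64.1 CPM under DMSO, 97.2, 99.1 and 101 CPM under abemaciclib, 119, 113 and 127 CPM under fulvestrant and 128, 118 and 130 CPM under the combination. TPM4, the more abundant non-muscle tropomyosin, had 553, 576 and 600 CPM under DMSO, 803, 760 and 780 CPM under abemaciclib, 1109, 1091 and 1064 CPM under fulvestrant and 978, 987 and 1107 CPM under the combination. For both genes DMSO was lowest and abemaciclib next, and fulvestrant overlapped the combination. Log2 fold changes against DMSO were 0.58 ± 0.09, 0.85 ± 0.09 and 0.92 ± 0.09 for TPM1. For TPM4 they were 0.44 ± 0.07, 0.92 ± 0.07 and 0.83 ± 0.07. In the combination TPM1 was higher than under abemaciclib by 0.34 ± 0.09 and TPM4 by 0.39 ± 0.07, whereas the differences from fulvestrant were 0.07 ± 0.09 and -0.09 ± 0.07. TPM2, the tropomyosin of smooth and slow skeletal muscle, had 0 to 5 counts in any library and could not be compared, with 9 counts in all under DMSO, 4 under abemaciclib and 3 in each of the other groups.

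Of the transgelins, small actin-binding proteins of the calponin family, TAGLN2 is the widely expressed form. It had 962, 1079 and 1011 CPM under DMSO, 1139, 1049 and 1227 CPM under abemaciclib, 1041, 1052 and 1310 CPM under fulvestrant and 1476, 1304 and 1116 CPM under the combination. Only the combination lay wholly above DMSO (0.35 ± 0.10 on the log2 scale). Abemaciclib and fulvestrant overlapped DMSO, at 0.16 ± 0.10 each, and the fulvestrant value was 0.04 without replicate 3. TAGLN, the smooth muscle form, was near the limit of detection with 0, 4 and 3 reads under DMSO, 5, 1 and 5 under abemaciclib, 6, 7 and 8 under fulvestrant and 6, 6 and 11 under the combination. Pooled over libraries TAGLN stood at 0.53 CPM under DMSO (95% exact Poisson interval 0.213 to 1.09), 0.797 (0.398 to 1.43) under abemaciclib, 1.72 (1.06 to 2.63) under fulvestrant and 1.65 (1.04 to 2.47) under the combination. These intervals cover counting error only, and PCSK7, which overlaps the 3′ end of TAGLN on the opposite strand, held 1038 counts.

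**Figure D3:**
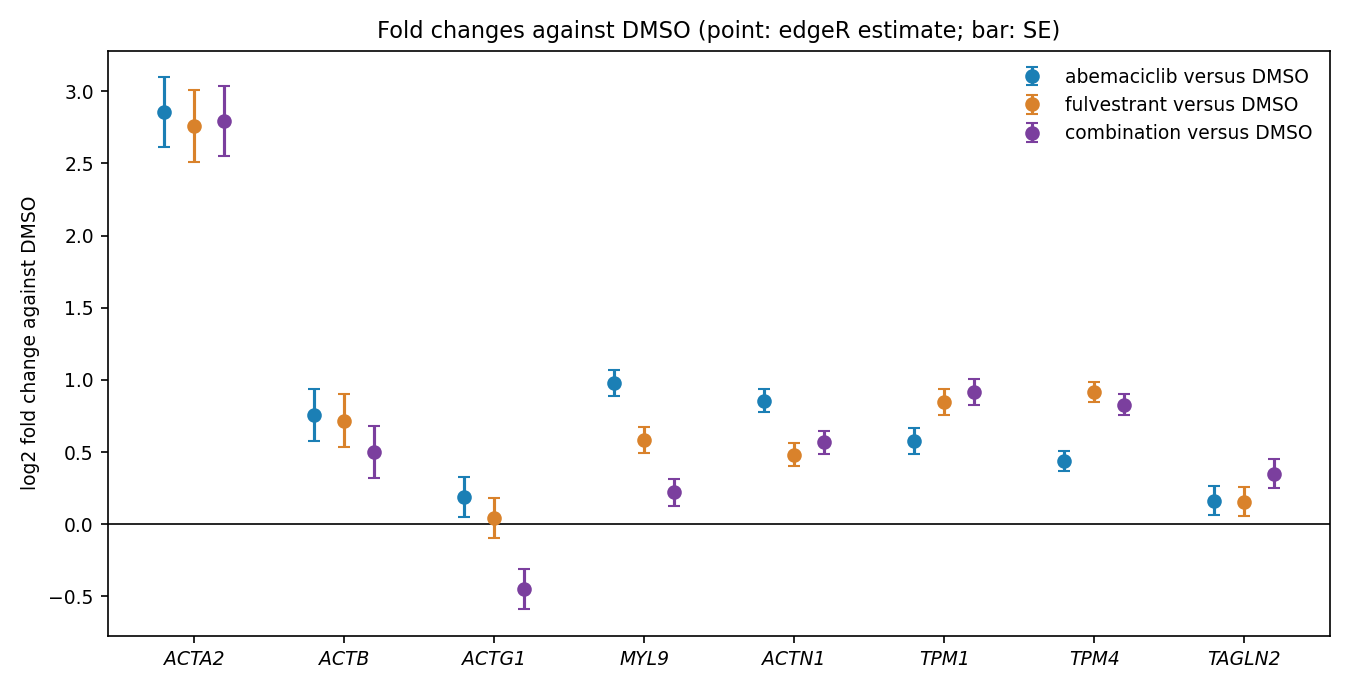
Log2 fold change of the 8 fitted genes against DMSO under abemaciclib, fulvestrant and the combination; points are edgeR estimates and bars are standard errors. ACTA2 lies near 2.8 in all 3 comparisons, MYL9 declines from 0.98 to 0.22 and ACTG1 is at -0.45 in the combination.

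Counted over the 8 fitted genes, 6 lay above DMSO without overlap under abemaciclib (54.2% of all genes tested did not overlap, 27% above), 6 under fulvestrant (54.7%, 26.7% above and 28.1% below) and 7 under the combination, with ACTG1 below (62.1%, 31.4% above and 30.7% below). Since the levels chose the genes, nothing is read from these counts. Their median log2 fold changes were 0.67, 0.65 and 0.54, against 0, 0.01 and 0.01 over all genes tested.

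Fulvestrant added to abemaciclib left 2 genes higher (TPM1 and TPM4) and 4 lower without overlap (ACTB, ACTG1, MYL9 and ACTN1), where 48.5% of all genes did not overlap (23.8% above and 24.7% below). Abemaciclib added to fulvestrant left ACTG1 and MYL9 lower without overlap, where 14.6% of all genes did not overlap (7.13% above and 7.44% below). Abemaciclib against DMSO and the combination against fulvestrant share no library. The difference between these effects, the interaction, measures whether abemaciclib acted alike without and with fulvestrant. That reading holds only if the combination used the single-agent doses, which its label leaves unstated. It was -2.82 ± 0.31 for ACTA2, -1.34 ± 0.13 for MYL9 and -0.97 ± 0.26 for ACTB. It was -0.77 ± 0.11 for ACTN1, -0.69 ± 0.20 for ACTG1, -0.53 ± 0.10 for TPM4 and -0.51 ± 0.12 for TPM1. TAGLN2 was at 0.03 ± 0.14. Without fulvestrant replicate 3 the interaction was -1.16 for ACTB, -0.85 for ACTG1 and 0.15 for TAGLN2, and the combination differed from fulvestrant by -0.40 in ACTB, -0.66 in ACTG1 and 0.31 in TAGLN2. In ACTA2, with an effect of 2.85 without and 0.04 with fulvestrant, the level in the combination was that of either drug alone.

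**Figure D4:**
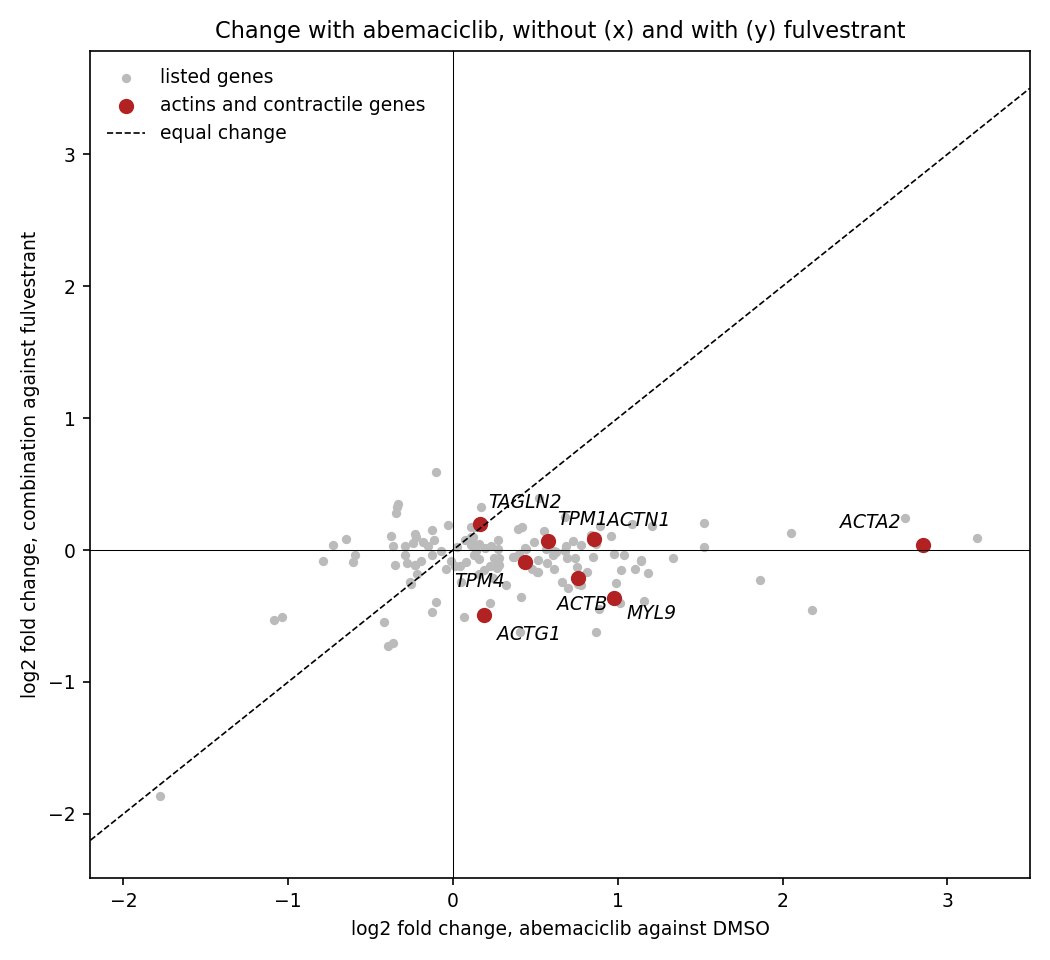
Log2 fold change of abemaciclib against DMSO (x) and of the combination against fulvestrant (y) for the 8 fitted genes (red) and the listed cytoskeleton genes (grey); the dashed line marks equal change. ACTA2 lies at 2.85 and 0.04, MYL9 at 0.98 and -0.36, and 7 of the 8 genes lie below the dashed line.

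Profiles were compared by the root-mean-square difference of log2 CPM over the 12 libraries, after centring on the DMSO mean. TPM1 and TPM4 were the closest pair of the set (0.13), then MYL9 and ACTN1 (0.2). ACTA2 was 1.57 to 2.32 from every other gene of the set. Among 9087 candidates the 5 genes nearest to ACTA2 were BCAS1 (0.391), CYP4B1 (0.401), RTL5 (0.404), KRT80 (0.44) and MAP2 (0.443), where the median candidate was at 2.24. KRT80, an epithelial keratin, averaged 35.5 CPM under DMSO and 165, 152 and 162 CPM under abemaciclib, fulvestrant and the combination. ACTB was nearest to CAPZB (0.089), a subunit of the filament capping protein, and TPM4 had CORO1B (0.082) and RHOB (0.089) among its 5 nearest. The 5 nearest to ACTN1 included the luminal keratin KRT19 (0.091) and the tight junction gene CLDN4 (0.107).

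The rest of the actin system was read from 169 listed genes outside the set, of which 136 could be tested with edgeR's quasi-likelihood test and Benjamini-Hochberg adjustment over all 11803 genes. These lists, too, were drawn up with earlier results of these libraries known, so their shares are set beside those of all genes as a description. Under abemaciclib 63 rose and 14 fell (56.6% changed, against 41.2% of all genes, of which 20.5% rose and 20.7% fell). Under fulvestrant 60 rose and 25 fell (62.5%, against 51% of all genes, 25.3% rising and 25.7% falling). Under the combination 59 rose and 30 fell (65.4%, against 55.2%, 27.7% rising and 27.5% falling). The median listed gene was at 0.27, 0.28 and 0.17 on the log2 scale in these comparisons.

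Of the smooth muscle genes 6 of 18 could be tested, and 5 rose under abemaciclib (MYLK, ACTG2, CNN2, CNN3 and SMTN). MYLK, the kinase that phosphorylates myosin light chains, had 5.34, 9.88 and 13.23 CPM under DMSO and 80.2, 65.6 and 51.8 CPM under abemaciclib. Its levels were 60.3, 64.0 and 57.2 CPM under fulvestrant and 67.9, 71.5 and 75.0 CPM under the combination, and no treated library overlapped DMSO. MYLK rose by 2.75 ± 0.20 (log2, edgeR adjusted p = 3.41e-09), 2.61 ± 0.20 (edgeR adjusted p = 4.21e-09) and 2.86 ± 0.20 (edgeR adjusted p = 7e-10). ACTG2, the enteric smooth muscle actin, rose by 2.18 ± 0.27 (edgeR adjusted p = 3.79e-07), 2.60 ± 0.26 (edgeR adjusted p = 6.35e-09) and 2.14 ± 0.27 (edgeR adjusted p = 2.26e-07). Under fulvestrant and under the combination 2 of the 6 rose and 1 fell. The shares changed were 83.3%, 50% and 50%, where 41.2%, 51% and 55.2% of all genes changed.

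Of the 26 non-muscle myosin genes and regulators, 12 rose and 4 fell under abemaciclib, and 15 rose and 4 fell under fulvestrant. Under the combination 15 rose and 5 fell. The shares changed were 61.5%, 73.1% and 76.9%, where 41.2%, 51% and 55.2% of all genes changed. MYH9, the main heavy chain of non-muscle myosin II, averaged 347 ± 8.2 CPM under DMSO (SD, n = 3) and rose to 705 ± 17.6, 774 ± 42.7 and 695 ± 71.4 CPM, with edgeR adjusted p of 2.98e-11, 9.53e-13 and 1.29e-11. The light chain gene MYL12A rose by 1.19 ± 0.11, 1.16 ± 0.11 and 0.98 ± 0.11 (edgeR adjusted p = 6.76e-08, 5.02e-08 and 3.84e-07). Its neighbour MYL12B rose by 0.98 ± 0.20, 1.14 ± 0.20 and 1.11 ± 0.20 (edgeR adjusted p = 0.0038, 0.0011 and 0.00114). These near-identical light chains may exchange reads. The heavy chain MYH10 moved the other way, by -0.79 ± 0.18, -0.92 ± 0.18 and -1.01 ± 0.18 (edgeR adjusted p = 0.000795, 0.000134 and 3.16e-05). MYL6B had -0.42 ± 0.11 under abemaciclib (edgeR adjusted p = 0.00311). ROCK1 had -0.51 ± 0.11 under fulvestrant (edgeR adjusted p = 0.000393), and ARHGEF2 -1.03 ± 0.17 under the combination (edgeR adjusted p = 1.52e-05). MYL6B stood at -0.37 under fulvestrant and -0.92 under the combination. Under abemaciclib ROCK1 and ARHGEF2 stood at -0.13 and -0.1. Reads of MYH9, MYH10 and MYH14 per cytoplasmic actin read were 0.143 to 0.178 under DMSO, 0.227 to 0.264 under abemaciclib, 0.255 to 0.356 under fulvestrant and 0.316 to 0.376 under the combination.

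Among 11 tested genes of filament ends and tropomyosin partners, GSN, which severs and caps filaments, rose from 34.7, 36.9 and 34.5 CPM under DMSO to 137.9, 145.2 and 158.4 CPM under abemaciclib. Its rise was 2.05 ± 0.12 under abemaciclib (edgeR adjusted p = 1.22e-13), 1.07 ± 0.12 under fulvestrant (edgeR adjusted p = 3.52e-08) and 1.19 ± 0.12 under the combination (edgeR adjusted p = 2.74e-09). TPM3, a tropomyosin outside the set, fell, with log2 changes of -0.35 ± 0.08, -0.58 ± 0.08 and -0.70 ± 0.08 (edgeR adjusted p = 0.000765, 6.93e-07 and 2.61e-08), against higher TPM1 and TPM4. EPS8, a capping protein, fell, with log2 changes of -1.04 ± 0.18, -0.58 ± 0.17 and -1.10 ± 0.18 (edgeR adjusted p = 3.25e-05, 0.00632 and 7.9e-06), and without fulvestrant replicate 1 the middle value was -0.45 and no longer passed. SVIL, which ties myosin and actin to the membrane, rose by 1.14 ± 0.26, 0.89 ± 0.27 and 0.81 ± 0.27 (edgeR adjusted p = 0.000912, 0.00785 and 0.0123). The fulvestrant call on SVIL was lost without DMSO replicate 2 (0.69) or fulvestrant replicate 1 (0.74), and its combination call without DMSO replicate 2 (0.60) or combination replicate 2 (0.71). SCIN had -0.74 ± 0.10 under the combination (edgeR adjusted p = 5.26e-07), with 0.07 under abemaciclib and -0.23 under fulvestrant. In the whole list 4 rose and 2 fell under abemaciclib, 3 and 2 under fulvestrant, and 2 and 3 under the combination. These are 54.5%, 45.5% and 45.5% of the 11, where 41.2%, 51% and 55.2% of all genes changed.

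Of the crosslinkers and adhesion linkers 33 of 40 were tested, and 22 rose and 1 fell under abemaciclib. Under each of fulvestrant and the combination 20 rose and 4 fell. The shares changed were 69.7%, 72.7% and 72.7%, where 41.2%, 51% and 55.2% of all genes changed. The focal adhesion scaffold PXN rose by 1.53 ± 0.18, 1.77 ± 0.18 and 1.79 ± 0.18 (edgeR adjusted p = 2.81e-05, 4.21e-06 and 2.99e-06). CSRP1, a LIM-domain partner of alpha-actinin, rose by 1.33 ± 0.11, 1.14 ± 0.11 and 1.08 ± 0.11 (edgeR adjusted p = 1.08e-10, 9.68e-10 and 1.96e-09). ITGA3, a laminin-binding integrin, rose by 0.75 ± 0.17, 1.5 ± 0.16 and 1.37 ± 0.16 (edgeR adjusted p = 0.001, 1.65e-08 and 5.92e-08). The membrane skeleton gene SPTBN1 fell, with log2 changes of -1.09 ± 0.13, -1.36 ± 0.14 and -1.88 ± 0.14 (edgeR adjusted p = 1.83e-07, 3.7e-09 and 7.71e-12). RDX, which links filaments to the membrane, had log2 changes of -0.23 ± 0.10, -1.04 ± 0.10 and -0.92 ± 0.10 (edgeR adjusted p = 0.0532, 1.91e-09 and 1.01e-08), the first of which passed under some alternatives. The bundling gene PLS1 had -0.13 ± 0.20, -0.81 ± 0.22 and -1.28 ± 0.23 (edgeR adjusted p = 0.645, 0.0037 and 3.11e-05).

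Without fulvestrant replicate 3 the fulvestrant values were 1.61 for ITGA3, -1.52 for SPTBN1 and -1.18 for RDX, and that of PXN was 1.92.

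Genes of monomer supply and nucleation were split between directions, with 13 of 41 tested rising in each comparison. Under abemaciclib, fulvestrant and the combination 7, 14 and 16 fell. The shares changed were 48.8%, 65.9% and 70.7%, where 41.2%, 51% and 55.2% of all genes changed. The formin gene DIAPH3 went from 101.5, 77.0 and 75.2 CPM under DMSO to 24.0, 25.4 and 24.0 CPM under abemaciclib, 8.15, 6.49 and 14.4 CPM under fulvestrant and 2.41, 2.90 and 2.72 CPM under the combination. Its log2 changes were -1.78 ± 0.16, -3.09 ± 0.18 and -4.95 ± 0.22 (edgeR adjusted p = 1.34e-09, 3.12e-13 and 7.23e-16), and without fulvestrant replicate 3 that under fulvestrant was -3.50. LIMK2, the kinase that inactivates cofilin, rose by 1.21 ± 0.10, 1.41 ± 0.10 and 1.59 ± 0.10 (edgeR adjusted p = 2.18e-10, 4.02e-12 and 2e-13). TMSB4X, which sequesters actin monomers, rose by 0.99 ± 0.29, 1.48 ± 0.29 and 1.23 ± 0.29 (edgeR adjusted p = 0.0239, 0.00259 and 0.00625), and its abemaciclib call was lost on leaving out any 1 abemaciclib library (0.98 to 1.01) and with no filter on low counts (1.00), while its fulvestrant value was 1.70 without replicate 3. ACTL6A, an actin-related protein of chromatin remodellers, fell, with log2 changes of -0.73 ± 0.14, -0.50 ± 0.13 and -0.46 ± 0.13 (edgeR adjusted p = 8.3e-05, 0.00265 and 0.00396). CAP2 had -0.03 ± 0.10, -1.08 ± 0.11 and -0.89 ± 0.11 (edgeR adjusted p = 0.851, 4.37e-09 and 6.46e-08). ARPC1B, a subunit of the Arp2/3 complex, had -0.37 ± 0.15, -0.71 ± 0.16 and -1.42 ± 0.17 (edgeR adjusted p = 0.0535, 0.000428 and 3.59e-08), the first of which passed under some alternatives.

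**Figure D5:**
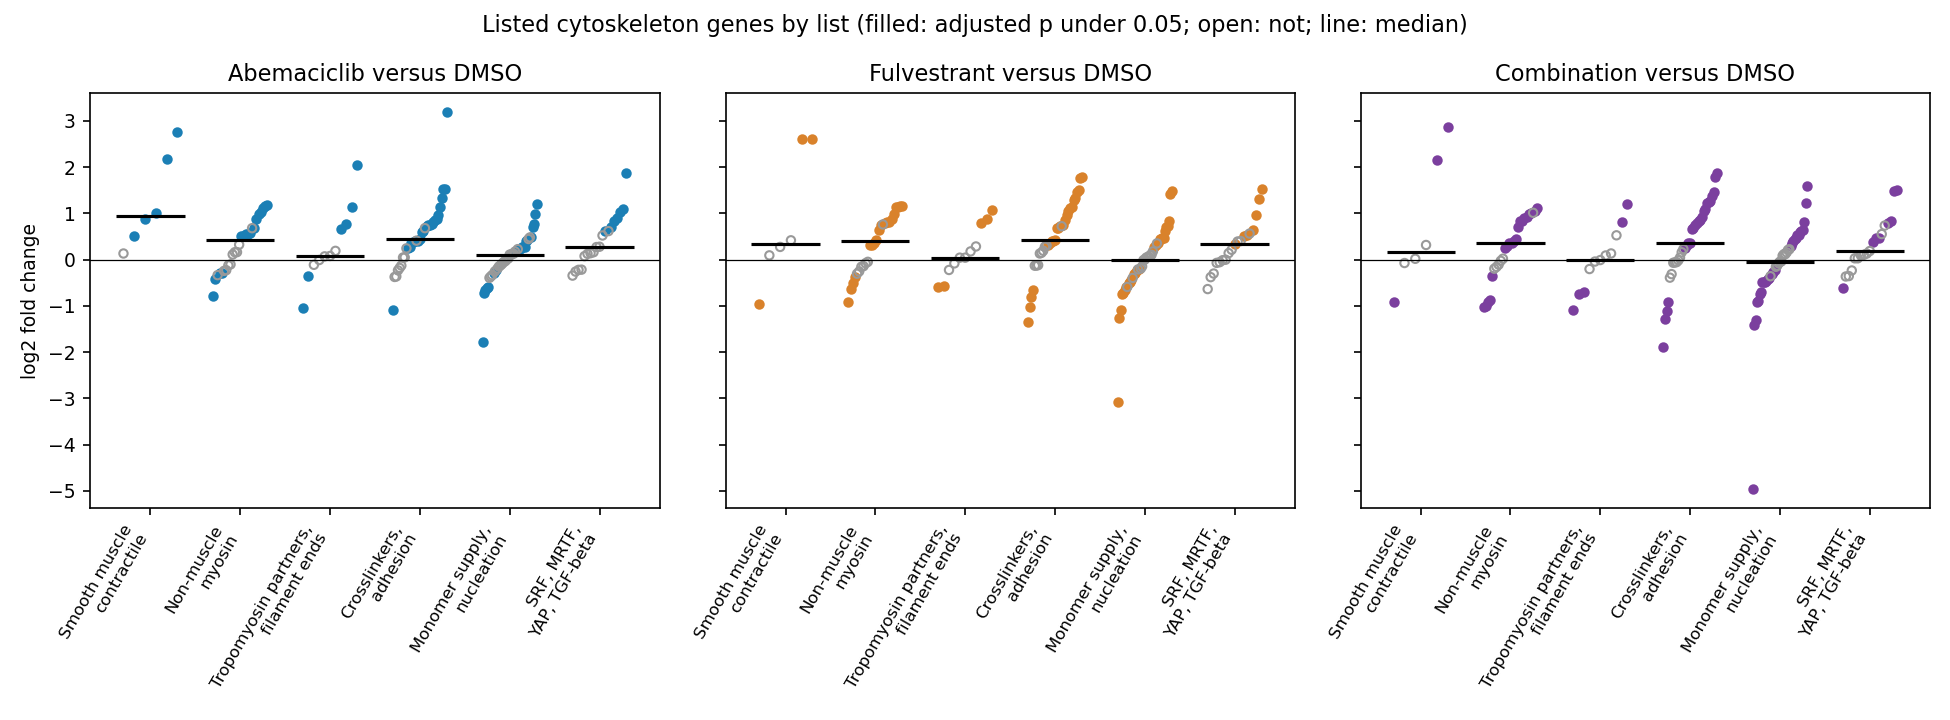
Log2 fold changes against DMSO of the 136 tested cytoskeleton genes outside the set, by list (x) and comparison (panels). Filled points passed an adjusted p under 0.05, open points did not, and the line is the median of the list. Crosslinkers and adhesion linkers had 22 genes that rose and 1 that fell under abemaciclib (69.7% changed, against 41.2% of all genes).

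Of the regulators, SRF, with 71.5, 93.1 and 125.9 CPM under DMSO, had log2 differences of 0.62 ± 0.28, 0.56 ± 0.28 and 0.55 ± 0.28, none of which passed (edgeR adjusted p = 0.116, 0.132 and 0.13). Without fulvestrant replicate 3 the first pair passed, at 0.61 and 0.80. MRTFA had 0.07 ± 0.18 and 0.40 ± 0.18 under the single agents (edgeR adjusted p = 0.774 and 0.0629) and rose by 0.48 ± 0.17 under the combination (edgeR adjusted p = 0.0218). That call was lost under DESeq2 (0.46) and without DMSO replicate 3 (0.35) or combination replicate 1 (0.40), and the fulvestrant difference passed without DMSO replicate 1 (0.52) or fulvestrant replicate 2 (0.48). MRTFB stood at -0.22 ± 0.13, 0 ± 0.13 and 0.09 ± 0.13 (edgeR adjusted p = 0.191, 0.985 and 0.565).

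Among 19 tested regulators and targets of SRF, YAP and TGF-beta, 7 rose and none fell under abemaciclib and under fulvestrant, and 7 rose and 1 fell under the combination. The 7 that rose are 36.8% of the list in each comparison, where 20.5%, 25.3% and 27.7% of all genes rose. Counted in either direction, 36.8%, 36.8% and 42.1% changed, where 41.2%, 51% and 55.2% of all genes did. CCN1, a matricellular target of SRF and YAP, had 9.20, 22.0 and 23.2 CPM under DMSO and 61.2, 70.4 and 74.5 CPM under abemaciclib, a rise of 1.86 ± 0.30 (edgeR adjusted p = 0.000744). It rose by 0.96 ± 0.32 under fulvestrant (edgeR adjusted p = 0.0299), a call lost without fulvestrant replicate 1 (0.86) or 2 (0.79) or with only the groups compared (0.98). Under the combination CCN1 was at 0.73 ± 0.32 (edgeR adjusted p = 0.0779), and it passed without fulvestrant replicate 3. THBS1, a matrix protein that activates TGF-beta, rose by 1.09 ± 0.11, 0.64 ± 0.11 and 0.84 ± 0.11 (edgeR adjusted p = 4.28e-09, 2.16e-05 and 2.19e-07). TGFB3, a TGF-beta ligand, rose by 1.03 ± 0.18, 1.52 ± 0.17 and 1.48 ± 0.17 (edgeR adjusted p = 3.04e-05, 2.61e-08 and 2.7e-08). AMOTL2, an actin-binding YAP regulator, rose by 0.89 ± 0.10, 1.31 ± 0.10 and 1.49 ± 0.10 (edgeR adjusted p = 3.02e-08, 7.08e-12 and 3.32e-13). TEAD1, the DNA-binding partner of YAP, fell by 0.62 ± 0.16 under the combination (edgeR adjusted p = 0.002), with -0.26 ± 0.16 and -0.38 ± 0.16 under abemaciclib and fulvestrant (edgeR adjusted p = 0.192 and 0.0514), the latter passing under some alternatives.

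ACTB is itself a common reference gene, so it was set beside others. HSP90AB1, the reference of the study's RT-qPCR, had 4680 to 5018 CPM under DMSO and 4753 to 4791 under abemaciclib, and it fell to 3203 to 3393 under fulvestrant and 3538 to 3546 under the combination. Its log2 differences were -0.04 ± 0.07 (edgeR adjusted p = 0.688), -0.58 ± 0.07 (edgeR adjusted p = 3.45e-08) and -0.47 ± 0.07 (edgeR adjusted p = 1.19e-06). ACTB per HSP90AB1 was 0.0951, 0.121 and 0.132 under DMSO and 0.201, 0.214 and 0.193 under abemaciclib. It was 0.309, 0.339 and 0.215 under fulvestrant and 0.232, 0.227 and 0.228 under the combination. Of 14 reference genes, 5 fell and 2 rose under abemaciclib, 7 and 2 under fulvestrant, and 8 and 2 under the combination. The shares changed were 50%, 64.3% and 71.4%, where 41.2%, 51% and 55.2% of all genes changed. GAPDH, a glycolytic enzyme, fell, with log2 changes of -0.63 ± 0.08, -1.10 ± 0.08 and -1.34 ± 0.08 (edgeR adjusted p = 7.28e-07, 1.58e-11 and 2.43e-13).

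Between the combination and abemaciclib 21 of the 136 listed genes rose and 33 fell. In all 39.7% changed, against 33.5% of all genes, 15.9% rising and 17.7% falling. Between the combination and fulvestrant 1 rose and 4 fell (3.68%, against 1.92% of all genes, 0.297% rising and 1.63% falling). Without fulvestrant replicate 3 the count was 8, where 588 of 12069 genes (4.87%) changed. The interaction passed for 52 of the 136, negative in 49 and positive in 3 (38.2%, against 21.1% of all genes, of which 9.49% were positive and 11.6% negative), and for 71 without fulvestrant replicate 3, where 27.5% of all genes passed. It was negative in 4 of 6 smooth muscle genes, 13 of 26 myosin genes, 4 of 11 filament end genes, 14 of 33 crosslinkers and 7 of 19 regulators and targets. In monomer supply and nucleation it was negative in 7 and positive in 3 of 41. Luminal markers, a list outside the actin system that includes the keratins KRT8, KRT18 and KRT19, were negative in 7 of 12.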

How the data were processed

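RNA from 12 CAMA-1 cultures, 3 per treatment and described by the study as independent biological replicates, was made into 3′ tag libraries. The authors deposited raw counts per gene, unnormalised. By the study and the submitters' notes, reads were trimmed with BBDuk, aligned to hg38 with STAR and counted with featureCounts (2.0.1) on GENCODE genes, with the strand setting not given in the sources used here. The 44 rows without a gene name held 0 reads and were left out.

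Counts were analysed with edgeR (4.0.16) and limma (3.58.1) in R (4.3.3), the script being tested on simulated data first. Genes were kept by filterByExpr (minimum count 10, minimum total 15), leaving 11803, scaled by TMM factors, and fitted in 1 quasi-likelihood model of 4 group means. P-values were adjusted by Benjamini-Hochberg over all genes, with a threshold of 0.05. SE is that of the log2 fold change, and levels are TMM-scaled CPM. A permutation of 3 against 3 libraries cannot go below p = 0.1, so none is given. The members and gene lists were chosen with earlier results of these data known. The members were picked by their levels, so no p-value is given for one. The lists were drawn by function, and the same knowledge limits the shares called in them.

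Outside the set, SRF, MRTFA, MRTFB and HSP90AB1 were always named. From each list and comparison with DMSO, up to 2 genes higher and 2 lower were named, with the largest changes among those past the threshold, at 10 CPM or more in 1 group mean and without overlap, except for 1 gene that is not reported here. Up to 3 reference genes past the threshold were eligible per comparison. The 5 nearest genes were named for ACTA2, and listed genes among the 5 nearest for the others. Replicate numbers were not used as pairs in the main fit. Alternatives covered scaling, filters, DESeq2 (1.42.0), a replicate block, mitochondrial transcripts, the libraries fitted and each library left out. Loci and exons are from GENCODE v44 (GRCh38), and upstream sequences from RefSeq.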

Additional observations from a re-analysis of the deposited data

Results flagged for a closer look

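Each result here was singled out because the effect of abemaciclib differed without and with fulvestrant. Genes outside the set came from those picked by the naming rule for their changes against DMSO. Those changes use some of the same libraries as the interaction, and only genes whose interaction passed are listed. The adjusted p-values are therefore a description of genes chosen partly on these values. Values are the interaction on the log2 scale with its edgeR Benjamini-Hochberg adjusted p, and the effects without and with fulvestrant share no library. The label of the combination leaves its doses unstated, so a difference in dose cannot be told apart from these effects.

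Among contractile genes the interaction was -2.50 for MYLK (adjusted p = 1.8e-06), with an effect of 2.75 without and 0.24 with fulvestrant. ACTG2 had -2.64 (adjusted p = 3.6e-06), with 2.18 without and -0.46 with fulvestrant. Myosin genes followed with -1.18 for MYH9 (adjusted p = 1.1e-08), -1.36 for MYL12A (adjusted p = 4.5e-06) and -1.54 for MYO1E (adjusted p = 1.3e-05). MYL12B had -1.01 (adjusted p = 0.033), a call that was lost with no filter on low counts (-1.02) and on leaving out DMSO replicate 1 or 3, abemaciclib replicate 2 or 3, or fulvestrant replicate 1 or 2 (-0.87 to -1.05).

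Of the filament end genes GSN had -1.92 (adjusted p = 3.6e-09) and SCIN -0.58 (adjusted p = 0.0036). SVIL had -1.22 (adjusted p = 0.016), lost without DMSO replicate 2 (-1.02) or fulvestrant replicate 1 (-1.07). The adhesion genes PXN, CSRP1 and ITGA3 had -1.50, -1.39 and -0.88 (adjusted p = 0.001, 1.1e-07 and 0.0062). In PXN the effect was 1.53 without and 0.02 with fulvestrant.

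LIMK2 had -1.02 (adjusted p = 4.3e-06), while ACTL6A had 0.77 (adjusted p = 0.0047), with an effect of -0.73 without and 0.04 with fulvestrant. The targets and ligands CCN1, THBS1, TGFB3 and AMOTL2 had -2.09, -0.89, -1.07 and -0.71 (adjusted p = 0.0069, 8.8e-05, 0.0013 and 3e-04). The reference genes HPRT1 and GUSB had 1.05 and 0.62 (adjusted p = 0.003 and 0.0028). GAPDH had 0.40 (adjusted p = 0.018), a call lost without DMSO replicate 1, abemaciclib replicate 2, fulvestrant replicate 1 or combination replicate 1 (0.31 to 0.38).

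MYL9 stood out because all abemaciclib libraries lay above all DMSO libraries and all combination libraries below all fulvestrant libraries, with an interaction of -1.34 ± 0.13. As its levels chose it, this difference was not tested.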

How the results depend on the processing

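Over all alternatives the number of listed genes called stayed within 1.5 times its value in every comparison except the combination against fulvestrant. There the count of 5 became 2 when only the groups compared were fitted, 8 without fulvestrant replicate 3 and 3 without combination replicate 2. Leaving out each library in turn gave 63 to 83 calls for abemaciclib, 78 to 92 for fulvestrant and 77 to 96 for the combination against DMSO, 46 to 65 for the combination against abemaciclib, 3 to 8 against fulvestrant and 44 to 71 for the interaction. In their deviations from group means, same-numbered libraries correlated at -0.215 to 0.119 over 18 pairs, 2 of them over 0.1. These values show no strong shared replicate effect and cannot show whether the cultures were paired. With a replicate block the counts were 75, 83, 88, 54, 5 and 51. Without scaling factors the log2 values of TPM4 became 0.37 under abemaciclib and 0.86 under fulvestrant, that of ACTN1 0.42 under fulvestrant, and the interactions -0.40 for TPM1, -0.41 for TPM4 and -0.66 for ACTN1, each a move larger than the SD of log2 CPM between replicates. TPM4's interaction was -0.60 without combination replicate 3. Alternatives for single genes outside the set were chosen after seeing the data. MRTFA under abemaciclib turned to -0.06 without DMSO replicate 3, within -0.06 to 0.19 over all libraries left out. In the same comparison CAP2 turned to 0.04 without DMSO replicate 1 (range -0.07 to 0.04), PLS1 to 0.04 without DMSO replicate 3 (-0.24 to 0.04), and ARHGEF2 to 0 and 0.02 without DMSO replicates 2 and 3 (-0.30 to 0.02). MRTFB under fulvestrant, near 0 throughout, turned to 0.02 with upper-quartile factors, to 0 with no filter, without mitochondrial transcripts or with only the groups compared, and ranged from -0.10 to 0.06 on leaving out single libraries. The cause was not tested. The 9 to 11 ACTA2 reads per DMSO library, and the 0 to 11 reads of TAGLN and TPM2, are the depth limits.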
